A study of Homo sapiens with 9 samples.

Results

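The cells carried the label Huh7, the name of a line derived from a liver tumour. They received either Scramble, Si-KDM4C#1 or Si-KDM4C#2, with 3 RNA sequencing libraries for each siRNA. Both knockdown siRNAs are aimed at KDM4C, a histone demethylase, and RNA was collected 48 hours after transfection. The 3 libraries of Si-KDM4C#2 were compared directly with the 3 of Si-KDM4C#1, so 6 of the 9 libraries entered the test, and every library of both groups was used. Scramble entered no test here, and its levels are given only to place the other 2 groups. The labels give a replicate number but do not say whether replicates are separate cultures, so p-values measure the spread between these libraries, which may be technical.

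Small interfering RNAs guide the RNA-induced silencing complex to a matching transcript, which is then cut. Reagents against 1 target share that target, while other transcripts that pair in part with a guide strand can differ between reagents. KDM4C belongs to a family of demethylases that remove methyl groups from lysines of histone H3, and KDM4A, KDM4B and KDM4D are its paralogs.

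Levels are FPKM, that is, fragments corrected for the exon length of the gene and for the depth of each library. Differences are Si-KDM4C#2 minus Si-KDM4C#1 on log2(FPKM + 1), which understates the change of genes near or under 1 FPKM. Where means of both groups stand side by side, that of Si-KDM4C#1 comes first, each as mean ± SD over n = 3 libraries. Of 32906 listed genes, 13740 had a mean of at least 1 FPKM in one of the 2 groups and were tested. Recovered depth ran from 14597503 to 18058557 fragments per library. Of the 17 markers of hepatocytes that were looked for, 12 were listed and all 12 were under 1 FPKM in the 6 libraries, with AFP and SERPINA1 at 0. The summed level of these 12 was 0.0483 to 0.149 FPKM with Si-KDM4C#1 and 0.271 to 0.450 FPKM with Si-KDM4C#2. Of the 4 listed epithelial markers, KRT8 and KRT18 were above 1 FPKM and KRT19 and CDH1 were under 1 FPKM in all 6 libraries. The 5 listed markers of leukocytes, the 3 of endothelium and the 4 of neural cells were under 1 FPKM in all 6. Among the 6 fibroblast markers, 4 reached 1 FPKM in some library, and the 6 summed to 56.0 to 59.1 FPKM with Si-KDM4C#1 and 79.6 to 80.7 FPKM with Si-KDM4C#2. The 12 listed hepatocyte markers thus did not bear out the liver origin that the label gives, and the identity of the cells was not tested. The part of these markers in the differences between the siRNAs was not tested.

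The target was lower with Si-KDM4C#2 than with Si-KDM4C#1. KDM4C was at 1.18, 1.1 and 1.13 FPKM with Si-KDM4C#1 and at 0.256, 0.349 and 0.256 FPKM with Si-KDM4C#2. The groups did not overlap, and the Scramble mean was 4.69 FPKM. The difference was -0.73 ± 0.11 (SE; adjusted p = 0.000746, limma), and the exact permutation test, two-sided, gave p = 0.1, the smallest that 3 against 3 allows. KDM4C is near or under 1 FPKM, where the pseudocount counts most: the difference was -1.69 with a pseudocount of 0.1 and -2.12 with limma voom on recovered fragments, and the mean FPKM with Si-KDM4C#2 was 0.252 times that with Si-KDM4C#1.

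KDM4B was also lower with Si-KDM4C#2, at 0.204 times its mean with Si-KDM4C#1. KDM4B was at 6.42, 5.73 and 5.16 FPKM with Si-KDM4C#1 and at 1.1, 1.17 and 1.26 FPKM with Si-KDM4C#2. With Si-KDM4C#1 it was near the Scramble mean of 6.28 FPKM, and all 3 libraries of Si-KDM4C#2 were far below. The difference was -1.63 ± 0.08 (SE; adjusted p = 3.6e-06, limma), with p = 0.1 in the two-sided exact permutation test. KDM4A differed less, at 4.91 ± 0.237 against 4.05 ± 0.202 FPKM, again with the lower level in the Si-KDM4C#2 libraries (log2 difference -0.23 ± 0.06 (SE), adjusted p = 0.0113, limma). KDM4D, under the limit for testing, was at 0.331 ± 0.117 against 0.697 ± 0.0434 FPKM.

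**Figure D1:**
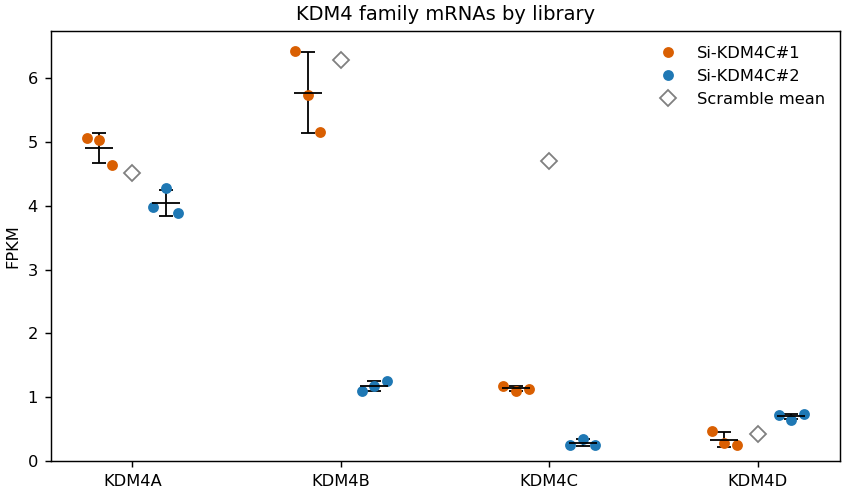
FPKM of the listed KDM4 genes in each library of Si-KDM4C#1 and Si-KDM4C#2 (points), with mean ± SD (bars, n = 3) and the Scramble mean (diamonds). KDM4C lies below Scramble with both siRNAs, and KDM4B lies below Scramble with Si-KDM4C#2 and near it with Si-KDM4C#1.

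The siRNAs differed across much of the transcriptome. At FDR < 0.05 and a fold change > 2, 637 genes were higher with Si-KDM4C#2 (4.64% of the genes tested) and 359 were lower (2.61%). The groups of 3 did not overlap for 987 of these 996 genes, and for 71.4% of all genes tested, so the first count follows largely from the limits. Without the fold limit, 5201 genes were higher (37.9%) and 3866 lower (28.1%). The split depended on scaling: the median of all genes was 0.08, and median-ratio scaling brought it to 0.01 and gave 511 higher and 446 lower genes, with 32.4% and 33.5% of genes at FDR < 0.05 alone. On log2(FPKM + 1), the Scramble mean lay nearer to Si-KDM4C#2 for 452 of the 637 higher genes and for 178 of the 359 lower genes. Over all 13740 genes tested it lay nearer to Si-KDM4C#2 for 7806 and to Si-KDM4C#1 for 5934.

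The 10 genes with the largest difference in the higher direction span low and high levels. HMGN5 was at 3.8, 3.66 and 3.12 FPKM with Si-KDM4C#1 and at 45.3, 48.7 and 51 FPKM with Si-KDM4C#2. HMGN5 (chrX:81113701-81201942 in GRCh38) encodes a nucleosome-binding protein, and its mean was 13.7 times as high with Si-KDM4C#2 (log2 difference 3.45 ± 0.07 (SE), adjusted p = 1.38e-07, limma). The Scramble mean was 32.6 FPKM, closer to Si-KDM4C#2. GTF3C6 was at 4.05, 4.69 and 4.37 FPKM with Si-KDM4C#1 and at 49, 49.1 and 45.2 FPKM with Si-KDM4C#2. This subunit of transcription factor IIIC, used by RNA polymerase III, had a Scramble mean of 24.8 FPKM (log2 difference 3.18 ± 0.06 (SE), adjusted p = 1.38e-07, limma).

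ANP32B was at 21.3, 21.3 and 20.1 FPKM with Si-KDM4C#1 and at 144, 146 and 141 FPKM with Si-KDM4C#2. ANP32B is an acidic nuclear protein with histone chaperone activity, and its groups were far apart (log2 difference 2.73 ± 0.04 (SE), adjusted p = 1.11e-07, limma). RPS12 was at 153, 141 and 134 FPKM with Si-KDM4C#1 and at 963, 942 and 906 FPKM with Si-KDM4C#2. This protein of the small ribosomal subunit had a Scramble mean of 808 FPKM (log2 difference 2.71 ± 0.05 (SE), adjusted p = 1.38e-07, limma). UQCRB, a subunit of respiratory complex III, was at 1.39 ± 0.0688 against 18.5 ± 0.115 FPKM, and its Scramble mean was 19.1 FPKM. HTATSF1, a splicing and elongation factor, was at 4.75 ± 0.734 against 42.8 ± 0.95 FPKM. The 10 also included the pseudogenes AP001324.1 and AC138392.1, whose reads can be shared with their parent genes, and the antisense RNA AL662791.1, with differences of 2.65, 2.40 and 2.52.

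The 10 genes with the largest difference in the lower direction included targets of the tumour suppressor p53. GDF15 was at 220.4, 271 and 297 FPKM with Si-KDM4C#1 and at 17.9, 19.1 and 18.3 FPKM with Si-KDM4C#2. This secreted stress cytokine (chr19:18374731-18389176) had a Scramble mean of 77.7 FPKM, between the groups (log2 difference -3.75 ± 0.10 (SE), adjusted p = 3.08e-07, limma). CPLX1 was at 25.4, 24.6 and 26.9 FPKM with Si-KDM4C#1 and at 1.31, 1.78 and 1.33 FPKM with Si-KDM4C#2. CPLX1, a regulator of vesicle fusion, was near its Scramble mean of 1.06 FPKM with Si-KDM4C#2 and high with Si-KDM4C#1 (log2 difference -3.43 ± 0.08 (SE), adjusted p = 1.98e-07, limma). NECTIN4 was at 7.08, 10.2 and 9.76 FPKM with Si-KDM4C#1 and at 0.0921, 0.202 and 0.218 FPKM with Si-KDM4C#2. This cell adhesion protein was under 1 FPKM with Si-KDM4C#2, where the 3 libraries held 29 recovered fragments together (log2 difference -3.08 ± 0.13 (SE), adjusted p = 1.65e-06, limma). MAL2, a protein of apical transport, was at 51 ± 1.55 against 6.11 ± 0.656 FPKM. RAB5C, a small GTPase of early endosomes, was at 27.3 ± 2.8 against 4.17 ± 0.205 FPKM. PSPHP1, a pseudogene of PSPH, and the pseudogene AC009244.1 had log2 differences of -2.73 and -2.55, and their reads too can be shared with near-identical copies.

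**Figure D2:**
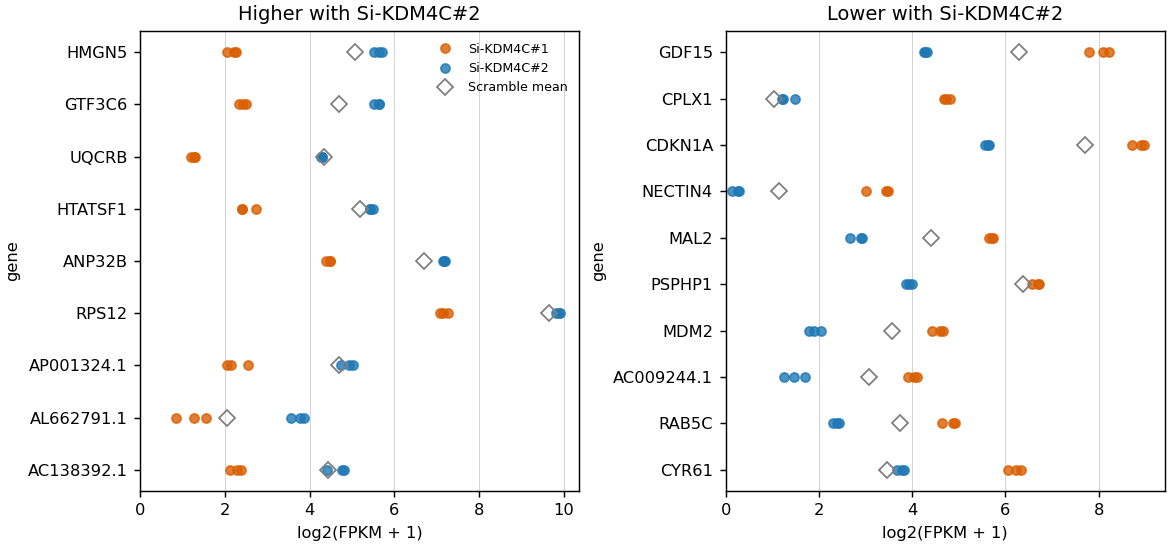
Genes with the largest higher (left) and lower (right) difference, on log2(FPKM + 1), with 1 point per library and the Scramble mean as a diamond. Genes were drawn only if their groups did not overlap, so the points of Si-KDM4C#1 and Si-KDM4C#2 are apart by choice. Groups did not overlap for 71.4% of all genes tested.

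The p53 list was lower with Si-KDM4C#2. Of its 28 tested members, 25 were lower at FDR < 0.05 and 1 was higher, with a median difference of -0.90 against 0.08 over all genes. All 10 members that act in arrest and feedback were lower. CDKN1A was at 417, 476 and 500.4 FPKM with Si-KDM4C#1 and at 48.3, 49.2 and 46 FPKM with Si-KDM4C#2. CDKN1A (chr6:36676460-36687339) encodes the cyclin-dependent kinase inhibitor p21, and its Scramble mean of 207 FPKM lay between the groups (log2 difference -3.25 ± 0.07 (SE), adjusted p = 1.38e-07, limma). MDM2 was at 20.6, 23.1 and 24.1 FPKM with Si-KDM4C#1 and at 2.7, 3.1 and 2.47 FPKM with Si-KDM4C#2. MDM2, the ubiquitin ligase that degrades p53, likewise had a Scramble mean between them, at 10.9 FPKM (log2 difference -2.65 ± 0.08 (SE), adjusted p = 4.96e-07, limma). BBC3 was at 19.1, 18.3 and 21.6 FPKM with Si-KDM4C#1 and at 3.33, 3.44 and 3.3 FPKM with Si-KDM4C#2. For BBC3, the BH3-only protein PUMA, the Scramble mean of 2.71 FPKM was near Si-KDM4C#2, so the elevated group was Si-KDM4C#1 (log2 difference -2.24 ± 0.07 (SE), adjusted p = 4.05e-07, limma). In the BCL2 family, 8 of 16 members were lower and 3 higher, with BCL2L1 at 13 ± 1.61 against 5.74 ± 0.429 FPKM and BAX at 50.9 ± 3.59 against 27.3 ± 0.938 FPKM.

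Genes of mitosis were higher with Si-KDM4C#2 almost throughout. In these bulk samples, more cells in mitosis with Si-KDM4C#2 than with Si-KDM4C#1 and more of these mRNAs per cell cannot be told apart. Of 51 tested members, 48 were higher and 1 was lower, with a median of 0.73. All 6 members for chromosome structure and all 18 for the spindle and mitotic exit were higher. TOP2A was at 26.7, 26.2 and 24 FPKM with Si-KDM4C#1 and at 97.2, 102 and 97 FPKM with Si-KDM4C#2. TOP2A, the topoisomerase that untangles sister chromatids, had a Scramble mean of 69.9 FPKM (log2 difference 1.90 ± 0.05 (SE), adjusted p = 2.45e-07, limma). HMMR was at 2.72, 1.83 and 2.64 FPKM with Si-KDM4C#1 and at 8.61, 8.98 and 9.8 FPKM with Si-KDM4C#2. For HMMR, a spindle protein, the Scramble mean was 6.36 FPKM (log2 difference 1.59 ± 0.11 (SE), adjusted p = 1.33e-05, limma). NCAPH, a condensin subunit, was at 8.21 ± 0.766 against 30.9 ± 1.99 FPKM. GTSE1, a microtubule-binding regulator of G2 and mitosis, was at 6.68 ± 0.716 against 23.1 ± 0.913 FPKM. The Scramble mean lay nearer to Si-KDM4C#1 for 35 of the 51, beside 5934 of all 13740 genes tested. Genes of DNA replication and G1/S did not share this direction, with 13 of 54 higher, 26 lower and a median of -0.12. Cyclin D1, encoded by CCND1, was at 48.6 ± 1.05 against 12.1 ± 0.761 FPKM.

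Replication-dependent histone genes, whose mRNAs end in a stem loop in place of a poly(A) tail, were higher in 22 of 34 and lower in 2, with a median of 0.60. HIST1H2AG was at 0.738, 0.883 and 1.08 FPKM with Si-KDM4C#1 and at 7.43, 6.37 and 6.96 FPKM with Si-KDM4C#2. The groups were far apart (log2 difference 2.06 ± 0.09 (SE), adjusted p = 1.8e-06, limma), and the Scramble mean of 6.67 FPKM was near Si-KDM4C#2. HIST1H2AC was at 2.44 ± 0.265 against 12.1 ± 1.51 FPKM, with a Scramble mean of 12.8 FPKM. These genes are near-identical copies, so reads may be split between them. Whether the libraries kept mRNAs without a poly(A) tail was not tested.

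Interferon-stimulated genes were higher with Si-KDM4C#2, in 34 of 39 tested members against 2 lower, with the highest median of the 38 lists with at least 10 tested members, 1.12. The 10 sensors of foreign RNA had 8 higher members and none lower, and the 29 stimulated genes had 26 higher and 2 lower. IFI44 was at 3.48, 4.13 and 3.15 FPKM with Si-KDM4C#1 and at 22, 22.2 and 19.8 FPKM with Si-KDM4C#2. IFI44 (chr1:78649796-78664078), an interferon-induced protein, had a Scramble mean of 11.8 FPKM, between the groups (log2 difference 2.29 ± 0.09 (SE), adjusted p = 1.03e-06, limma). IFIT2 was at 6.49, 7.08 and 5.72 FPKM with Si-KDM4C#1 and at 31.2, 32.2 and 31.1 FPKM with Si-KDM4C#2. IFIT2, an interferon-induced RNA-binding protein, had a Scramble mean of 25.2 FPKM (log2 difference 2.13 ± 0.07 (SE), adjusted p = 5.72e-07, limma). IFIT3 was at 10.5 ± 1.23 against 40.3 ± 0.863 FPKM. For IFI6, at 81.2 ± 10.0 against 284 ± 20.6 FPKM, the Scramble mean of 110.2 FPKM was nearer to Si-KDM4C#1.

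Promoters of members from the interferon and mitosis lists are shown because those lists were higher together. They run from 250 bases before to 50 after each gene's start, from RefSeq (GRCh38.p14). Capitals mark the interferon-stimulated response element in the first pair and TTTGAA, the cell cycle genes homology region, in the second pair, on either strand, and matches may overlap. The IFI44 window is chr1:78649539-78649838 (plus strand), that of IFI6 is chr1:27672143-27672442 (minus strand), that of TOP2A is chr17:40417847-40418146 (minus strand) and that of HMMR is chr5:163460382-163460681 (plus strand).
IFI44: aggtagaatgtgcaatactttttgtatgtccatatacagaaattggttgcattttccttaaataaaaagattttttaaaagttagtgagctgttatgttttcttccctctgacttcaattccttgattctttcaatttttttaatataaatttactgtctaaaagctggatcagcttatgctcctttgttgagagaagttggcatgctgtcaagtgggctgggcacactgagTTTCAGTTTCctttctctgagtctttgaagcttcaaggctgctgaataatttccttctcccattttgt
IFI6: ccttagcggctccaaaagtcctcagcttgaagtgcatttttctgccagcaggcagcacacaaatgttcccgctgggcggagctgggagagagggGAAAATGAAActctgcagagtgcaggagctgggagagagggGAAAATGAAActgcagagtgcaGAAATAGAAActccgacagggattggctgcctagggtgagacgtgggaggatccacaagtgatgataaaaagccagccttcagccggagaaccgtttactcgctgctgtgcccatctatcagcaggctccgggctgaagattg
TOP2A: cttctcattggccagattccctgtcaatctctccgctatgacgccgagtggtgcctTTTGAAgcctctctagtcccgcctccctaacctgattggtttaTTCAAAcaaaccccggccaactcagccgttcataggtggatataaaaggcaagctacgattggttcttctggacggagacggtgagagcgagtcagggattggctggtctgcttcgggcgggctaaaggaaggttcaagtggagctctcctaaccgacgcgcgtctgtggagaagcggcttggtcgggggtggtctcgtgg
HMMR: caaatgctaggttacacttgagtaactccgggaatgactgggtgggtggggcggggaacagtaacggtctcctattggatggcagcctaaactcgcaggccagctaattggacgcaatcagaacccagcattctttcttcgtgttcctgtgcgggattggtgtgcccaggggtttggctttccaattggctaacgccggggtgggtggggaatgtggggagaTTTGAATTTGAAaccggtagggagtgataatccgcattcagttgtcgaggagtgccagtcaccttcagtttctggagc

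The first motif was found in 20 of 30 matched promoters of the interferon list (66.7%) and in 3.65% of all 27305 promoters of that length. The second was found in 29 of 43 matched promoters of the mitosis list (67.4%) and in 15.4% of all promoters. These shares describe which genes the lists hold and say nothing of binding in these cells. For the sterol regulatory element TCACNCCAC the share was 1 of 27 in the cholesterol list (1.15% of all promoters), and for TGATGNAA, the core of the response element that ATF4 binds, it was 6 of 29 in the amino acid list (3.67% of all).

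The amino acid response driven by the transcription factor ATF4 was lower with Si-KDM4C#2, in 27 of 36 members against 2 higher, with a median of -0.44. All 8 amino acid transporters were lower. SHMT2 was at 111, 113 and 112 FPKM with Si-KDM4C#1 and at 27.4, 32 and 29.5 FPKM with Si-KDM4C#2. SHMT2, the mitochondrial enzyme that turns serine into glycine, had a Scramble mean of 76.7 FPKM (log2 difference -1.89 ± 0.05 (SE), adjusted p = 4.05e-07, limma). PSPH was at 42.3, 41.6 and 41.6 FPKM with Si-KDM4C#1 and at 11.2, 11.2 and 11.3 FPKM with Si-KDM4C#2. PSPH makes serine, and its spread within each group was small beside the difference (log2 difference -1.81 ± 0.03 (SE), adjusted p = 1.38e-07, limma). CHAC1, which degrades glutathione, was at 17.1 ± 1.73 against 5.73 ± 0.209 FPKM, with a Scramble mean of 3.62 FPKM. The unfolded protein response list was mixed, with 9 of 31 higher and 15 lower, and its largest difference was in the chaperone HSP90B1, at 73.7 ± 6.55 against 204 ± 13.1 FPKM.

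Cholesterol and fatty acid synthesis was lower in 26 of 35 members and higher in 3, with a median of -0.58. In the cholesterol branch 16 of 19 were lower. INSIG1, which holds the sterol-sensing complex in the endoplasmic reticulum, was at 70.5 ± 3.61 against 26.5 ± 1.92 FPKM, and DHCR7 at 50.1 ± 0.824 against 19.1 ± 1.74 FPKM. The Scramble means of both, 28.9 and 17.4 FPKM, were near Si-KDM4C#2. ACLY, which makes cytosolic acetyl-CoA, went the other way, at 39 ± 2.6 against 93.4 ± 2.82 FPKM. Glycolysis and hypoxia genes were lower in 24 of 38 and higher in 8.

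The list of YAP and TEAD, the transcriptional regulators of the Hippo pathway, holds these factors, other members of the pathway and targets. It was lower in 16 of 25 members and higher in 7, with a median of -0.43. Among the 15 targets, 11 were lower and 4 higher, with a median of -0.61. Of the 11 factors and other pathway members, which include LATS1, LATS2, NF2 and AMOTL1, 6 were lower and 3 higher. AMOTL2 was counted on both sides. CYR61 was at 65.6, 73.5 and 80.0 FPKM with Si-KDM4C#1 and at 12.8, 11.7 and 13.2 FPKM with Si-KDM4C#2. CYR61, a secreted matrix protein, had a Scramble mean of 10.0 FPKM, near Si-KDM4C#2 (log2 difference -2.45 ± 0.08 (SE), adjusted p = 5.06e-07, limma). TEAD4 was at 40.1, 39.3 and 42.3 FPKM with Si-KDM4C#1 and at 7.98, 8.99 and 8.44 FPKM with Si-KDM4C#2. TEAD4 is itself one of the factors, and its Scramble mean was 12.6 FPKM (log2 difference -2.13 ± 0.05 (SE), adjusted p = 2.31e-07, limma). Immediate early genes, AP-1 members and feedback regulators of MAPK were lower in 21 of 34 and higher in 7. The AP-1 members FOSL1 and JUN were at 26 ± 4.08 against 8.82 ± 0.815 FPKM and at 8.19 ± 0.729 against 2.82 ± 0.252 FPKM, with Scramble means of 3.9 and 2.3 FPKM.

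**Figure D3:**
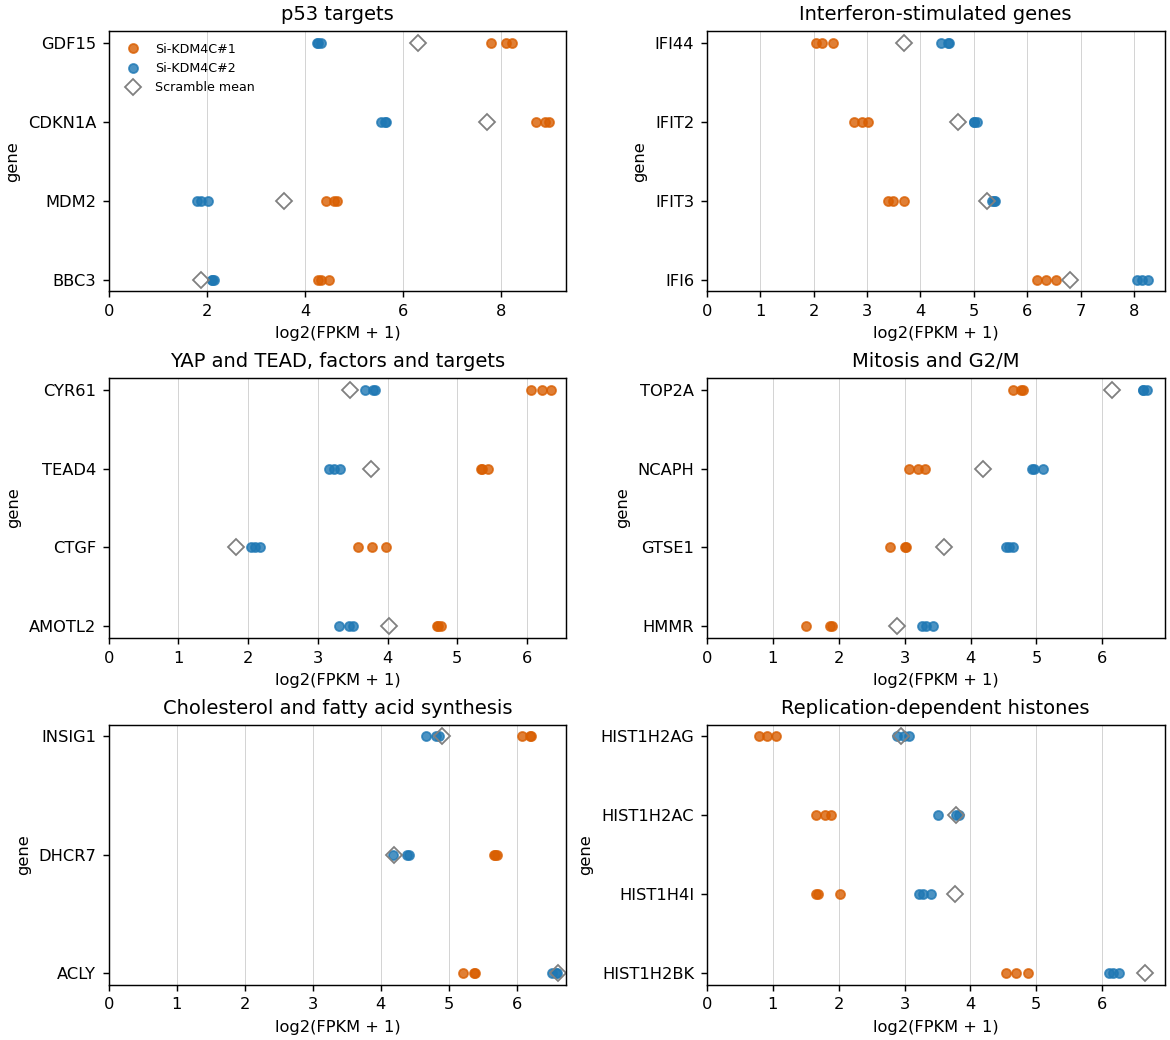
Up to 4 members with the largest difference in each of 6 lists, on log2(FPKM + 1), with 1 point per library and the Scramble mean as a diamond. Genes of the left column lie lower with Si-KDM4C#2 except ACLY, and genes of the right column lie higher.

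Cytosolic ribosomal protein genes were lower with Si-KDM4C#2 in 60 of 84 and higher in 9, by a small median of -0.28. The 3 members that also passed the fold limit went the other way: RPS12 above, RPL23A at 62.2 ± 1.15 against 209 ± 6.17 FPKM and RPL3 at 149 ± 14.3 against 311 ± 5.38 FPKM. Their Scramble means, 208 FPKM for RPL23A and 384 FPKM for RPL3, were nearer to Si-KDM4C#2. Ribosome biogenesis was split, with 24 of 56 higher and 22 lower. NPM1 was at 112, 103 and 104 FPKM with Si-KDM4C#1 and at 421, 433 and 439.6 FPKM with Si-KDM4C#2. NPM1, a nucleolar chaperone, was near its Scramble mean of 416 FPKM with Si-KDM4C#2 (log2 difference 2.01 ± 0.04 (SE), adjusted p = 1.38e-07, limma). NCL, nucleolin, was at 23.8 ± 2.55 against 101 ± 1.5 FPKM.

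Other chromatin genes were more often higher than lower. Of 51 histone demethylases, methyltransferases and readers of methylated lysine 9 outside the KDM4 family, 32 were higher and 8 lower, with a median of 0.24. ATRX was at 2.26, 2.47 and 1.88 FPKM with Si-KDM4C#1 and at 6.73, 7.51 and 7.81 FPKM with Si-KDM4C#2. ATRX, a chromatin remodeller, was near its Scramble mean of 7.67 FPKM with Si-KDM4C#2 (log2 difference 1.38 ± 0.09 (SE), adjusted p = 8.24e-06, limma). CBX3, a heterochromatin protein, was at 25.5 ± 1.54 against 63.8 ± 2.25 FPKM, KDM5A at 3.52 ± 0.353 against 8.78 ± 0.471 FPKM and SETD2 at 3.92 ± 0.218 against 9.5 ± 0.291 FPKM. For these genes and ATRX the Scramble mean lay nearer to Si-KDM4C#2. Over the list it lay nearer to Si-KDM4C#1 for 30 of the 51 and to Si-KDM4C#2 for 21, beside 5934 and 7806 of all 13740 genes tested. HOX genes were higher in 18 of 27 and lower in 1, with HOXA10 at 4.64 ± 0.169 against 11.7 ± 0.425 FPKM. Zinc finger genes named ZNF were higher in 129 of 294 (43.9%) and lower in 29 (9.86%). The share higher was near that of all genes tested (37.9%), and the share lower was under theirs (28.1%).

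Antisense RNAs (708 tested) and lincRNAs (511 tested) had medians of 0.30 and 0.29, while 10964 protein-coding genes had 0.06. Counts of antisense genes depend on strand, and no source used here states that reads were counted by strand. Across the 13721 genes with a GC value, the Spearman correlation of the difference with GC content was -0.08, a description over genes that are not independent.

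**Figure D4:**
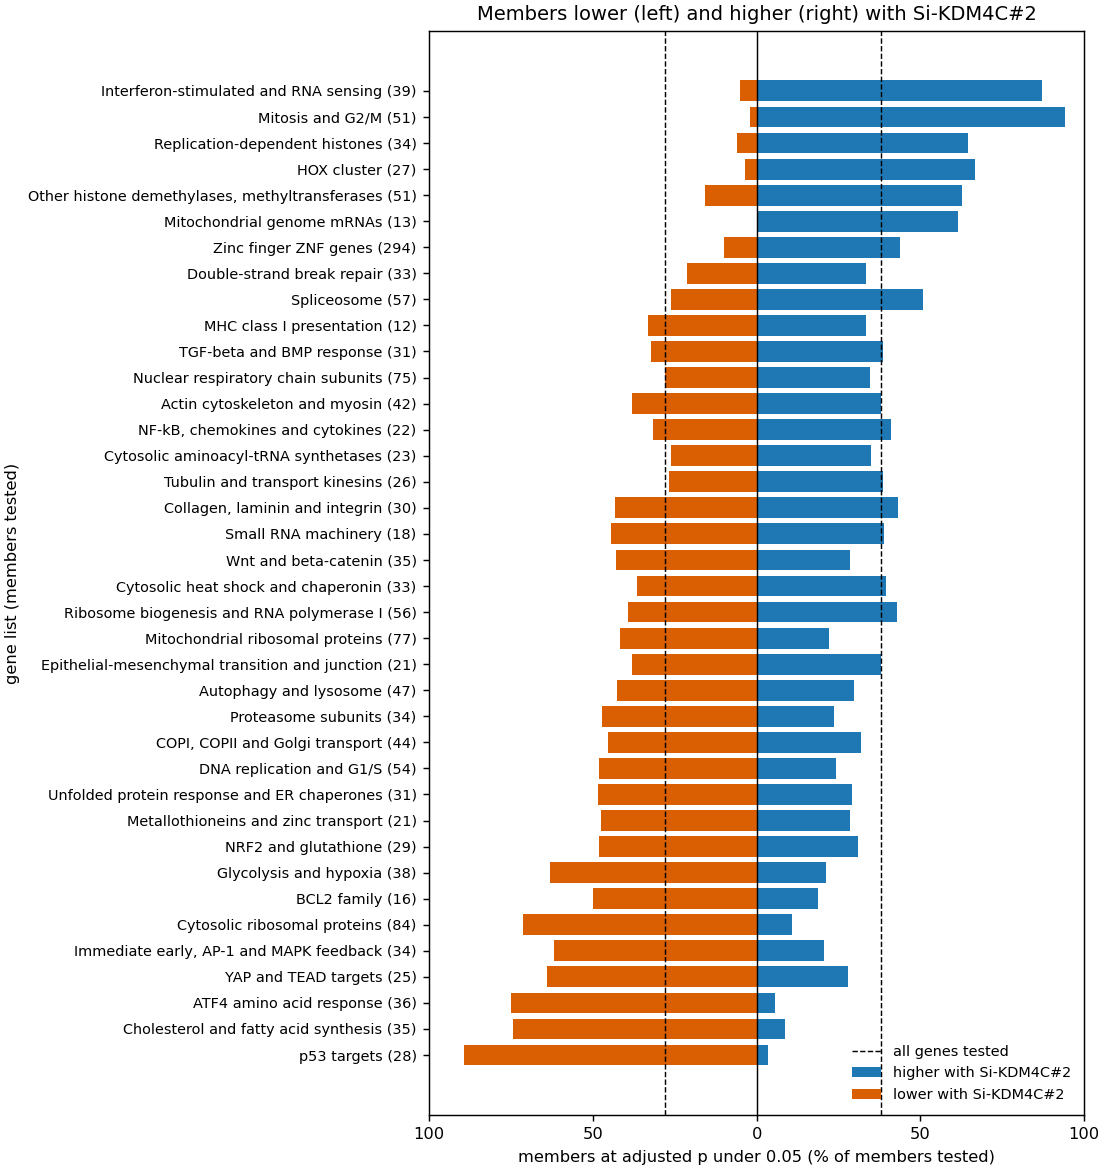
Share of tested members of each of 38 lists that were lower (left) or higher (right) with Si-KDM4C#2 at FDR < 0.05, ordered by median difference, with the shares over all genes as dashed lines (28.1% and 37.9%). The interferon and mitosis lists stand at the top and the p53 list at the bottom.

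Several lists were mixed and near the shares over all genes. Nuclear respiratory chain subunits had 26 of 75 higher and 21 lower, double-strand break repair 11 of 33 and 7, TGF-beta and BMP response 12 of 31 and 10, and actin and myosin 16 of 42 each way. In the spliceosome list 19 of 24 SR and hnRNP genes were higher, while the core had 10 of 33 higher and 13 lower. Integrins were lower in 7 of 9 and higher in 1, and the matrix genes of the same list were higher in 12 of 21 and lower in 6. The 13 mRNAs of the mitochondrial genome had 8 higher and none lower, and 4 higher and 1 lower under median-ratio scaling.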

How the data were processed

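RNA from 9 libraries was measured. The values deposited by the authors are FPKM, in a separate list for each library. The 3 libraries of Scramble, Si-KDM4C#1 and Si-KDM4C#2 were grouped by title. The submitters' processing notes name HISAT2 2.1.0, StringTie 1.3.3b, featureCounts and GRCh38, without their roles. The depth was recovered from FPKM with GENCODE release 29 exon lengths (97.54 to 97.68% of values above 0 whole within 0.05). It sets the counting precision, with a floor of 3 fragments.

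Genes whose mean reached 1 FPKM in either siRNA group entered limma 3.58.1 under R 4.3.3, as log2(FPKM + 1), with an empirical Bayes trend and Benjamini-Hochberg adjustment. The limits of FDR < 0.05 and fold > 2 are those of the study, with the fold taken here on FPKM + 1. KDM4C and KDM4B were also compared by a two-sided exact permutation test. Members and lists were chosen with earlier results of these data known. Genes named are the KDM4 family, the 10 higher and 10 lower genes with the largest difference among those called without overlap of groups, and up to 4 members per list with the largest difference at FDR < 0.05 without overlap. In simulated data, 198 of 200 genes changed 4-fold were recovered among 12369. The changed genes all had a mean above 200 recovered fragments, the rest were unchanged, and 1 spread setting served all genes. This recovery therefore does not cover genes with few fragments or data in which most genes differ. The siRNA sequences were not analysed here. Some genes that the rule names are not reported here. Python 3.11.15 and matplotlib 3.10.9 drew the plots.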

Additional observations from a re-analysis of the deposited data

How the results depend on the processing

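The 165 named genes with a fit kept their direction under all alternatives tried. Outside the KDM4 family they were picked for large differences at FDR < 0.05 without overlap in these libraries, which largely fixed this outcome. Of their 2627 fits, 2623 kept their side of FDR < 0.05, and 4 fits of the mitochondrial mRNAs MT-ATP8, MT-CO1 and MT-ND5 lost it, with no filter on low genes or with quantile normalization. KDM4C ran from -0.77 to -0.72 and KDM4B from -1.70 to -1.57 with each library left out. With a pseudocount of 0.1 and with limma voom on recovered fragments, KDM4C moved from -0.73 to -1.69 and -2.12, and KDM4B from -1.63 to -2.20 and -2.41. The 637 higher and 359 lower genes became 1307 and 603 with a pseudocount of 0.1, 1493 and 959 with limma voom on recovered fragments, and 195 and 139 with the fold tested against 2. By construction the smaller pseudocount compresses low genes less and the tested fold is stricter, and for voom the cause was not tested. Leaving out each library gave 605 to 686 higher and 347 to 381 lower genes. Of 39 lists, 13 had another balance of higher and lower members under some of 16 alternatives, among them aminoacyl-tRNA synthetases, NF-kB and TGF-beta. Some of these, such as actin and myosin, had as many higher as lower members in the main fit, so they left a tie. The p53, mitosis, histone, interferon, ATF4, cholesterol, YAP, HOX and cytosolic ribosomal protein lists kept their balance under all alternatives. Same-numbered libraries did not deviate together (correlations -0.063, 0.018 and -0.050). With the replicate block 638 genes were higher and 360 lower, the KDM4C difference was -0.73 and the KDM4B difference -1.63. Depth limits genes such as NECTIN4 with Si-KDM4C#2.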
